A study of Mus musculus with 11 samples.

Results

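The genes described here encode the enzymes that copy and write DNA methylation (Dnmt1, Dnmt3a, Dnmt3b and Uhrf1), the core of Polycomb repressive complex 2 (Ezh1, Ezh2, Suz12 and Eed) and the class I histone deacetylases Hdac1 and Hdac2. They were taken by name from the gene names of the array design, and all 10 were found, on 15 of the probes, among 27962 names in all. All 10 passed the filter on dim probes and were among the 16704 genes tested, and 6 of them were well above background in the sample channel on all 11 arrays. RNA of normal mouse liver was measured at embryonic day 14 (E14, 3 arrays), embryonic day 18 (E18, 3 arrays), postnatal day 5 (P5, 2 arrays, replicates 2 and 3) and postnatal day 56 (P56, 3 arrays). The labels name no allele, treatment or strain and call the replicates biological. They give the cells as hepatoblasts at E14, immature hepatocytes at E18 and hepatocytes at P5 and P56, while the extraction protocol speaks of whole livers together with cells isolated from fetal livers, and which of these a given fetal array holds is not known from them. On every array the sample was labeled with Cy5 and hybridised against the same commercial adult liver RNA, labeled with Cy3, with no dye swaps. The question asked of these 10 genes is how their levels differed between fetal, newborn and adult liver.

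DNA methylation is the addition of a methyl group to cytosine, mostly where cytosine is followed by guanine. Dnmt3a and Dnmt3b place the mark on unmethylated DNA, and Dnmt1 copies it to the new strand after replication, where Uhrf1 recognises the half-methylated site and brings Dnmt1 to it. Polycomb repressive complex 2 (PRC2) methylates lysine 27 of histone H3 and holds genes silent, with Ezh2 or Ezh1 as the catalytic subunit and Suz12 and Eed as the subunits that the enzyme needs to work. Hdac1 and Hdac2 remove acetyl groups from histones within the NuRD, Sin3 and CoREST complexes. Ezh2 is known as the form of dividing cells and Ezh1 as the form found also in resting tissues. Fetal liver is also the site of blood formation, so its RNA comes from blood precursors as well as from the hepatocyte lineage.

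All values below are log2 of the Cy5 signal over the Cy3 signal after normalization within each array, so that 0 is the level of the adult reference and 1 is a level 2-fold above it. Each array had 43379 spots besides 1639 control spots, and 16790 to 25718 of them were well above background in Cy5, fewest on P56 replicate 2. Across genes, replicate arrays correlated with r of 0.987 to 0.990 at E14, 0.969 to 0.985 at E18, 0.901 at P5 and 0.827 to 0.937 at P56. The 2 P5 arrays stood apart from each other, and 9 of the 10 genes had the lower value in replicate 3. All 15 erythroid marker genes were well above background on every E14, E18 and P5 array, although the labels name only cells of the hepatocyte lineage. The mean log2 ratio of the erythroid markers ran from 3.04 to 3.24 over the E14 arrays, from 3.17 to 3.26 over the E18 arrays, from 2.28 to 3.07 over the P5 pair and from -0.12 to 0.02 over the P56 arrays. The mean of 15 mature hepatocyte markers ran from -3.82 to -3.64 at E14 and from -0.25 to 0.32 at P56. In such bulk samples, fewer cells of a type and less RNA per cell cannot be told apart.

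From E14 to P56, 9 of the 10 genes fell, and Ezh1 alone did not pass the test. The largest fall was that of Uhrf1, and the smallest called fall was that of Eed. The order of the genes depended on the correction: with an offset of 50 added to the signals Ezh2 and Dnmt1 came next, without it Dnmt3b (-2.54) passed Dnmt1 (-2.34), and with the processed signals of the scanner software Dnmt3b (-3.49) passed Ezh2 (-3.32) and Hdac2 (-3.21) passed Dnmt1 (-2.86). With median centring the change of Hdac2 (-1.18) was smaller than that of Eed (-1.37). By limma with Benjamini-Hochberg adjustment over the 16704 genes, 34.8% of all genes tested were called lower in this comparison and 36.1% higher. The log2 fold changes had a median of -1.41 over the 10 genes and 0.04 over all genes. The count stayed at 9 when any single array was left out. No scan held both E14 and P56 arrays, so scan and stage cannot be told apart in this comparison. In 9 of the 10 genes the P56 arrays lay below all E14 arrays without overlap, against 36.8% of all genes. On the normalized scale, 9 of the 10 genes had a mean above the adult reference at E14 and at P5, then 8 had a mean below it at P56.

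**Figure D1:**
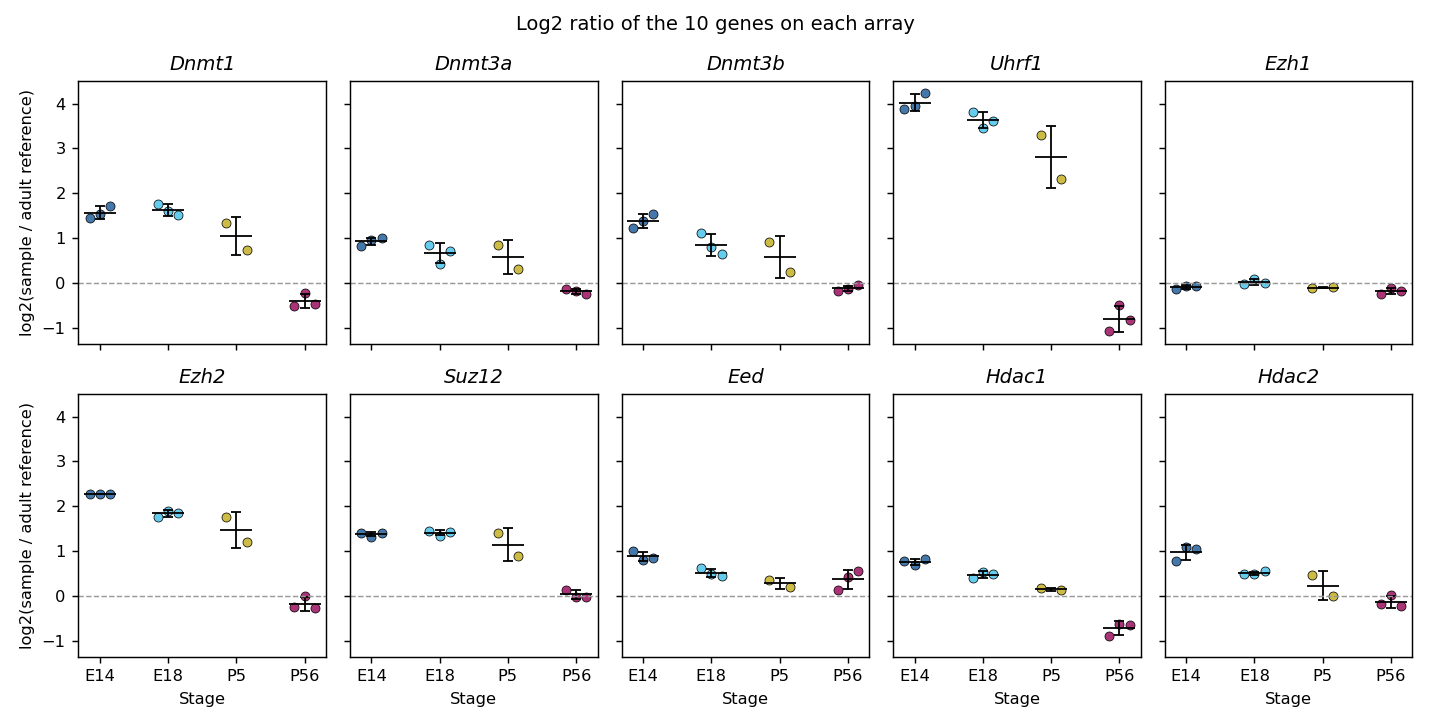
Each point is the log2 ratio of liver RNA over the adult reference on 1 array for 1 gene, by stage, with the stage mean as a bar and its SD as whiskers (n = 3, and n = 2 at P5). The P56 points of Uhrf1, Ezh2, Dnmt1, Suz12 and Hdac1 lie below all points of the earlier stages, while those of Ezh1 lie near 0 throughout.

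The maintenance pair of DNA methylation gave the most marked course. Uhrf1, which reads half-methylated DNA, had log2 ratios of 3.87, 3.95 and 4.24 on the 3 E14 arrays, 3.82, 3.46 and 3.60 on the E18 arrays, 3.29 and 2.31 at P5, then -1.09, -0.51 and -0.83 at P56. Its level was thus about 16.2 times that of the adult reference at E14 and 6.97 times at P5. The E14 and E18 arrays did not overlap, but the difference between them, -0.39 ± 0.22 (SE), did not pass the test (adjusted p = 0.178, limma). Between E18 and P5 it fell by 0.83 ± 0.25 on the log2 scale (adjusted p = 0.0496), a call that was lost with the scan as a random block (adjusted p = 0.0697), and between P5 and P56 by 3.61 ± 0.25 (adjusted p = 6.03e-07). Over the whole course the fitted log2 fold change was -4.83 ± 0.22 (adjusted p = 3.88e-09).

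The adult value of Uhrf1 is only a bound. The raw Cy5 signal of its brighter probe was 48.0, 42.4 and 46.5 on the P56 arrays over local backgrounds of 36.0, 37.5 and 34.0, against 2393, 3705 and 4198 on the E14 arrays. It was well above background on 0 of 3 P56 arrays and on all earlier arrays. Bounds were set on the Cy5 channel, with the offset of 50 and after a normalization that used both channels. Each P56 array was put at the higher of the probe's own signal and the lowest signal called well above background. Here the probe's own signal was the higher one. By this rule Uhrf1 was at least 33.3-fold higher at E14 than at P56 and at least 14.3-fold higher at P5 than at P56. The fitted ratio over the Cy3 reference, a different scale, corresponds to smaller values of 28.4 and 12.2 times with the same offset of 50. Its log2 fold change from E14 to P56 was -5.99 without the offset. The size of the fall therefore depends on the scale and the correction. The second probe, at chr17:54481380-54481439 beside the first at chr17:54481483-54481542 (build mm7), gave at least 18.0-fold and at least 7.37-fold, and its log2 fold change from E14 to P56 was -3.67 ± 0.19. Bounds of this kind compare values of 1 channel and are open to dye bias, since no dyes were swapped.

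Dnmt1, the maintenance methyltransferase, had no called change between E14 and E18 and lower values after birth. Its log2 ratios were 1.45, 1.54 and 1.72 at E14, 1.77, 1.61 and 1.51 at E18, 1.34 and 0.73 at P5, then -0.52, -0.24 and -0.49 at P56. The E14 and E18 arrays overlapped, with a difference of 0.06 ± 0.15 (adjusted p = 0.771, limma). All arrays of P5 lay below those of E18, a fall by 0.59 ± 0.17 on the log2 scale (adjusted p = 0.0380, and 0.0550 with the scan as a random block), and those of P56 lay below P5, a fall by 1.45 ± 0.17 (adjusted p = 3.54e-05). From E14 to P56 the log2 fold change was -1.98 ± 0.15, a level 3.94 times higher at E14 (adjusted p = 2.36e-07). Dnmt1 was well above background on all 11 arrays, so there was signal at both ends. The size of the fall still depended on the correction, at -2.34 without the offset and -2.86 with processed signals.

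The 5 probes whose interval in the mouse genome build mm7 spans 135 to 2910 bases for a length of 60, and so crosses an intron, are shown here, since they read spliced RNA of the genes whose falls are described. The other 10 probes are not printed. The Dnmt1 probe lies at chr9:20784085-20784453, that of Dnmt3a at chr12:3825243-3826024, that of Ezh2 at chr6:47568744-47569639, that of Eed at chr7:85913246-85916155 and that of Hdac2 at chr10:36774774-36774908, each with at least 1 reading frame free of stop codons. No part of these probes is set in capitals, as none is singled out.
Dnmt1: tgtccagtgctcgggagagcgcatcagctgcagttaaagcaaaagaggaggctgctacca
Dnmt3a: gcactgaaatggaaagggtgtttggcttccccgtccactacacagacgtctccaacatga
Ezh2: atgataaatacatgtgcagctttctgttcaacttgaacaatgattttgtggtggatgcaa
Eed: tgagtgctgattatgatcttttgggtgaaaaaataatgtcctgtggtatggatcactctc
Hdac2: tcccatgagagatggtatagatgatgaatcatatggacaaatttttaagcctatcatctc

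The de novo methyltransferases Dnmt3b and Dnmt3a, by their brightest probes, were both lower at P56 than at E14. Dnmt3b had log2 ratios of 1.23, 1.38 and 1.54 at E14, 1.11, 0.79 and 0.63 at E18, 0.91 and 0.25 at P5, then -0.18, -0.13 and -0.06 at P56. The E18 arrays all lay below the E14 arrays, a fall by 0.54 ± 0.17 on the log2 scale (adjusted p = 0.0197, limma), whereas the P5 arrays overlapped those of E18 (adjusted p = 0.387). From P5 to P56 it fell by 0.71 ± 0.19 (adjusted p = 0.00941) and over the whole course by 1.51 ± 0.17 (adjusted p = 6.49e-06). Its probe was well above background on 1 of the 3 P56 arrays, and the size of its fall rests on the correction. From E14 to P56 the Dnmt3b change was -2.54 without the offset and -3.49 with processed signals, and from P5 to P56 it was -1.29 and -2.47.

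Dnmt3a was read by 3 probes that did not move alike. By the brightest, whose sequence is given above, its log2 ratios were 0.83, 0.95 and 0.99 at E14, 0.85, 0.43 and 0.72 at E18, 0.85 and 0.31 at P5, then -0.14, -0.18 and -0.25 at P56. The arrays of each of the first 3 stages overlapped those of the next, and the P56 arrays lay below all others, with a fall by 1.11 ± 0.14 from E14 (adjusted p = 2.12e-05, limma). The second probe, at chr12:3826602-3826661, went from means of 1.22 at E14 to 0.45 at E18, and was not well above background on any P56 array. With every probe as a feature of its own, that step from E14 to E18 was -0.77 ± 0.16 (adjusted p = 0.00225), where the brightest probe gave -0.26 ± 0.14 (adjusted p = 0.166). The third, at chr12:3830965-3831024, stayed between -0.23 and 0.12 on all 11 arrays although it was well above background on each of them, and its change from E14 to P56 was -0.20 ± 0.10 (adjusted p = 0.0872). The array design gives all 3 the same gene name, and which transcripts each one reads was not tested.

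Within PRC2, the catalytic subunit Ezh2 fell, while its alternative Ezh1 was measured by a single dim probe. Ezh2 had a log2 ratio of 2.28 on each of the 3 E14 arrays, 1.76, 1.90 and 1.86 at E18, 1.76 and 1.19 at P5, then -0.26, 0.003 and -0.27 at P56. Fetal levels were thus 4.86 times the reference at E14 and 3.57 times at E18, and the E14 arrays stood above all others. The step from E14 to E18 was a fall by 0.44 ± 0.13 on the log2 scale (adjusted p = 0.0173, limma), that from E18 to P5 did not pass the test (-0.36 ± 0.15, adjusted p = 0.138), and that from P5 to P56 was a fall by 1.65 ± 0.15 (adjusted p = 5.40e-06). From E14 to P56 Ezh2 fell by 2.46 ± 0.13, to a level 5.48 times lower (adjusted p = 1.44e-08), with its probe well above background on all 11 arrays.

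Ezh1 gave no called change in any comparison. Its log2 ratios were -0.15, -0.07 and -0.07 at E14, -0.03, 0.09 and -0.01 at E18, -0.12 and -0.10 at P5, then -0.26, -0.11 and -0.19 at P56. The difference from E14 to P56 was -0.09 ± 0.08 (adjusted p = 0.336, limma). The E18 arrays lay above those of E14 and P5, by differences that did not pass the test (adjusted p = 0.302 and 0.401). E18 was also the only stage through which the probe passed the filter on dim probes, so this order is no separate result. The only Ezh1 probe was dim, with raw Cy5 signals of 34.8 to 65.8 over local backgrounds of 28.0 to 35.0, and was well above background on 1 of 3 arrays at E14, 3 of 3 at E18, 1 of 2 at P5 and 0 of 3 at P56. The offset of 50 added before the ratio draws the ratios of dim probes towards 0. With the processed signals of the scanner software in place of this correction, Ezh1 was called lower at P56 than at E14 (-0.95, adjusted p = 0.0188). A p that misses the threshold here does not show a steady Ezh1 level.

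**Figure D2:**
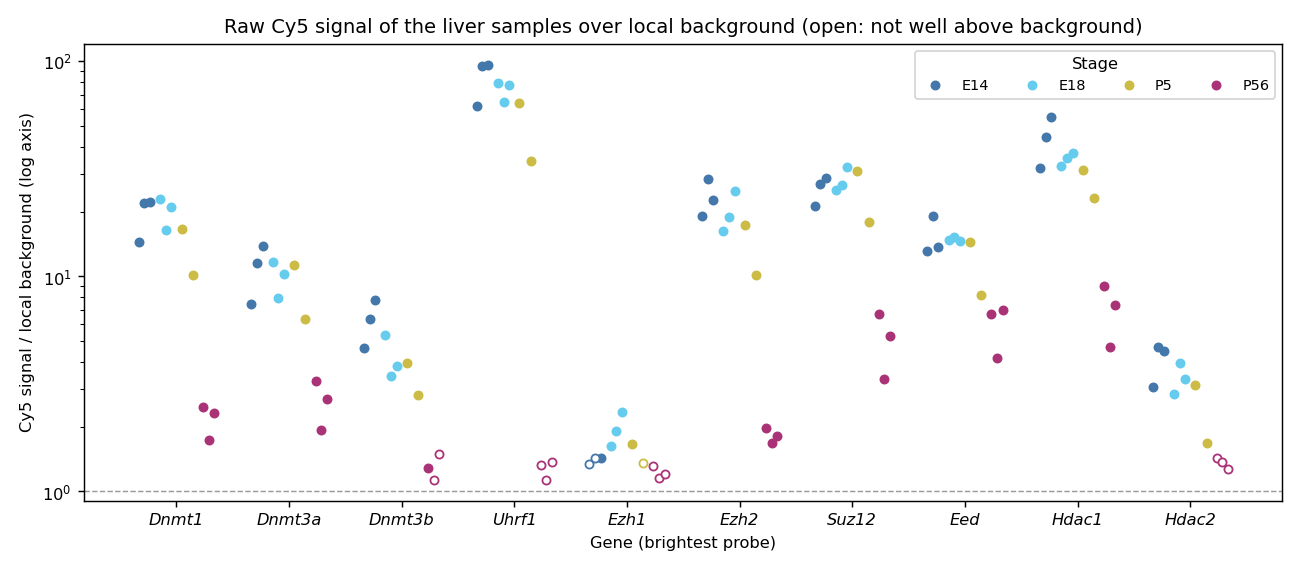
Raw mean Cy5 signal of the brightest probe of each gene divided by its local background, on a log axis, with 1 point per array coloured by stage. Open points were not well above background. The P56 points of Uhrf1 and Hdac2 and most points of Ezh1 are open, while Dnmt1, Dnmt3a, Ezh2, Suz12, Eed and Hdac1 have filled points at every stage.

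Suz12 and Eed, which PRC2 needs for its activity, were both lower at P56 than at E14. Suz12 had log2 ratios of 1.40, 1.32 and 1.40 at E14, 1.45, 1.34 and 1.43 at E18, 1.40 and 0.88 at P5, then 0.14, -0.02 and -0.04 at P56. It did not pass the test between E14 and E18 (0.03 ± 0.12, adjusted p = 0.847, limma) or between E18 and P5 (-0.27 ± 0.14, adjusted p = 0.226). From P5 to P56 it fell by 1.11 ± 0.14 (adjusted p = 5.72e-05), and its second probe fell by 0.83 ± 0.30 (adjusted p = 0.0411 with every probe as a feature). The adult level was that of the reference, with a mean of 0.03 ± 0.10 (SD, n = 3).

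Eed, the subunit that binds methylated lysine 27, had log2 ratios of 1.00, 0.80 and 0.84 at E14, 0.62, 0.49 and 0.44 at E18, 0.36 and 0.19 at P5, then 0.13, 0.41 and 0.55 at P56. From E14 to E18 it fell by 0.36 ± 0.12 (adjusted p = 0.0245, limma), a call that was lost without the offset (adjusted p = 0.122), with the scan as a fixed block (adjusted p = 0.263) and with single arrays left out (adjusted p up to 0.0941). The P5 arrays lay below all E18 arrays, by a difference that did not pass the test (-0.24 ± 0.13, adjusted p = 0.248). The P56 arrays overlapped those of P5, with a difference of 0.09 ± 0.13 (adjusted p = 0.612). Over the course it fell by 0.51 ± 0.12 (adjusted p = 0.00196), the smallest of the 9 called falls. That call was lost in the authors' table. With median centring instead of loess, the change from P5 to P56 turned to -0.79 (adjusted p = 8.77e-05), under a scaling in which the median of all genes moved by -0.47.

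The histone deacetylases Hdac1 and Hdac2 both stood above the adult reference at E14. Hdac1 had log2 ratios of 0.78, 0.69 and 0.82 at E14, 0.39, 0.54 and 0.48 at E18, 0.17 and 0.12 at P5, then -0.90, -0.62 and -0.64 at P56, so that no stage overlapped the next. It fell by 0.29 ± 0.10 from E14 to E18 (adjusted p = 0.0281, limma) and fell by 0.87 ± 0.11 from P5 to P56 (adjusted p = 6.22e-05), and the step between them, -0.32 ± 0.11, did not pass the test (adjusted p = 0.0731). Over the course it fell by 1.48 ± 0.10, to a level 2.79 times lower (adjusted p = 6.56e-08). Its raw Cy5 signal, 1049 to 1658 at E14 and 145.1 to 279.9 at P56, was well above background on all 11 arrays.

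Hdac2 had log2 ratios of 0.77, 1.09 and 1.03 at E14, 0.49, 0.48 and 0.55 at E18, 0.46 and -0.004 at P5, then -0.19, 0.01 and -0.23 at P56. It fell by 0.46 ± 0.13 from E14 to E18 (adjusted p = 0.0127, limma), and the later steps did not pass the test (adjusted p = 0.233 and 0.0617). The step from P5 to P56, -0.36 here, was called lower without background correction (-0.56, adjusted p = 0.0142), without the offset (-0.85, adjusted p = 0.0267), with processed signals (-1.54, adjusted p = 0.0323), in the authors' table (-1.52, adjusted p = 0.0318) and with median centring (-0.45, adjusted p = 0.0324). From E14 to P56 it fell by 1.10 ± 0.13 (adjusted p = 1.15e-05), a call that was lost in the authors' table. The probe was well above background on 0 of 3 P56 arrays, and the Cy5 channel gave a level at least 2.02-fold higher at E14 than at P56. The second Hdac2 probe was not well above background on any of the 11 arrays and gave no value.

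Placed side by side, the steps of development did not carry equal parts of these falls. From E14 to E18, 5 of the 10 genes were lower (Dnmt3b, Ezh2, Eed, Hdac1 and Hdac2) and none was higher, where 22.8% of all genes tested were called lower and 24.6% higher. Over the 10 genes the median log2 fold change was -0.33, and over all genes it was -0.01. The 5 log2 changes ran from -0.54 to -0.29, and the count was 2 or 3 when any 1 E14 or E18 array was left out, 2 with the scan as a fixed block and 1 without the background offset. Within the 1 scan that held both stages, with 3 E14 arrays and 1 E18 array, all 5 were lower at E18, by 0.26 to 0.53. These arrays were among those that gave the calls, so the signs are not an independent check. Of the genes not called, Dnmt1 (0.198), Suz12 (0.078) and Ezh1 (0.065) were higher in that scan. Uhrf1 (-0.202) and Dnmt3a (-0.073) were lower.

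Around birth, from E18 to P5, 2 of the 10 genes were lower (Dnmt1 and Uhrf1) and none was higher, where 6.40% of all genes tested were called lower and 7.32% higher. The median was -0.27 over the 10 genes and 0 over all genes. The result turned on the P5 arrays, and so did the calls over all genes tested. Without P5 replicate 2 the change of Uhrf1 was -1.32 and that of Dnmt1 -0.895. Without P5 replicate 3 these were -0.34 and -0.29. The count among the 10 genes was 0 without E14 replicate 1 or 2, any E18 array or P56 replicate 3. It was 1 without E14 replicate 3. With the scan as a random block it was 0, and with the replicate block it was 0. The P5 arrays differed in the same direction in the cell cycle genes, with a mean log2 ratio of 2.58 in replicate 2 and 1.90 in replicate 3, and in the erythroid markers, with 3.07 and 2.28, and the part of either in the result was not tested. No scan held both E18 and P5 arrays, so scan and stage cannot be told apart in this step.

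From P5 to P56, 7 of the 10 genes were lower and none was higher, where 24.7% of all genes tested were called lower and 20.9% higher. The exceptions were Ezh1, Eed and Hdac2. The median was -0.82 over the 10 genes and -0.02 over all genes, and Uhrf1 (-3.61), Ezh2 (-1.65), Dnmt1 (-1.45) and Suz12 (-1.11) had changes of over 1. Within the scan that held 1 P5 array and all 3 P56 arrays, the 7 genes were all lower at P56, by 0.37 for Dnmt3b up to 3.12 for Uhrf1. These arrays too were among those that gave the calls. Of the genes not called, Ezh1 (-0.085) and Hdac2 (-0.132) were lower in that scan and Eed (0.173) was higher. Dnmt3b was no longer called when P5 replicate 2 was left out (adjusted p = 0.154, limma).

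**Figure D3:**
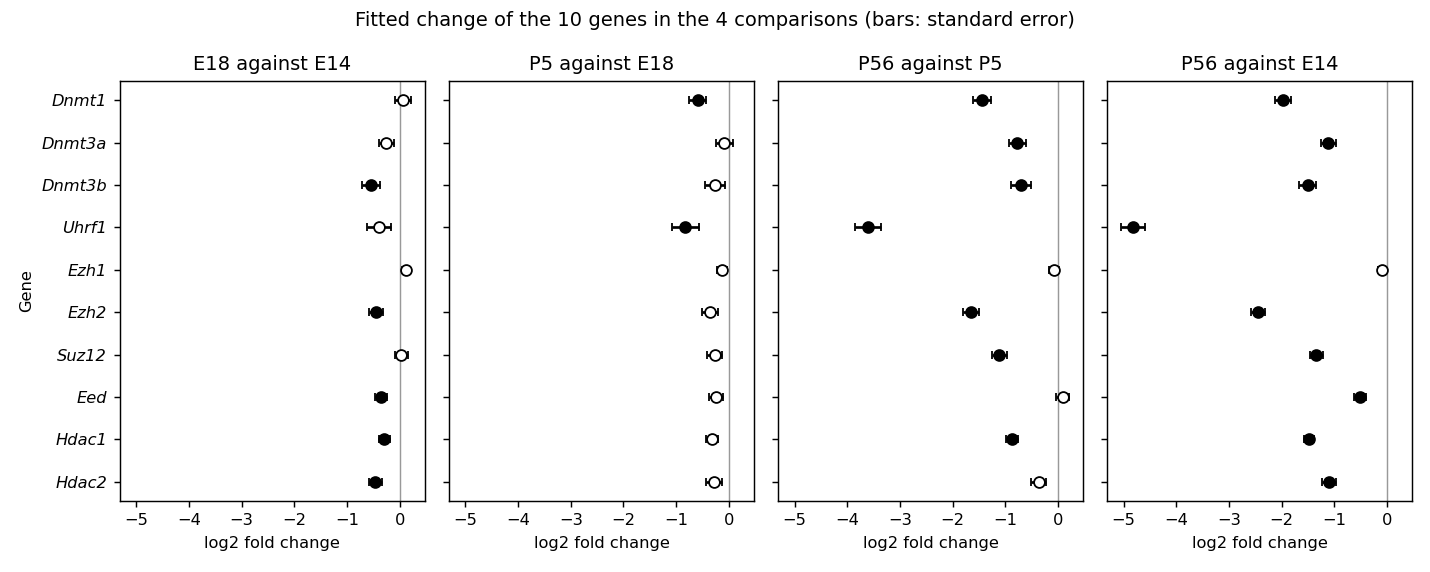
Fitted log2 fold change of the 10 genes in the 4 comparisons, later over earlier stage, with bars for the standard error over 11 arrays. Filled points have an adjusted p under 0.05, and no filled point lies to the right of 0. The called values of the last panel run from -0.51 for Eed to -4.83 for Uhrf1.

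Paralogues were compared on each array, between the 6 arrays labelled Embryonic and the 5 labelled Postnatal. The log2 ratio of Ezh2 minus that of Ezh1 was 2.10 ± 0.31 (SD, n = 6) before birth and 0.64 ± 0.89 (SD, n = 5) after, a difference of -1.46 (exact permutation test over 462 regroupings, two-sided, p = 0.0087, adjusted over the 3 pairs p = 0.026). By stage it was 2.37 at E14, 1.82 at E18, 1.59 at P5 and 0.01 at P56. The Ezh1 probe was well above background on 5 of the 11 arrays and its ratios lay near 0, so this difference mostly restates the values of Ezh2 and says little of Ezh1. It was -1.04 with the processed signals of the scanner software (exact p = 0.11) and -1.02 in the authors' table (exact p = 0.15).

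Dnmt3b minus Dnmt3a was 0.32 ± 0.22 (SD, n = 6) before birth and 0.04 ± 0.10 (SD, n = 5) after, a difference of -0.28 (exact p = 0.032, adjusted p = 0.048). That of Hdac2 minus Hdac1 was 0.12 ± 0.17 (SD, n = 6) and 0.38 ± 0.33 (SD, n = 5), and the difference of 0.26 did not pass the test (exact p = 0.12, adjusted p = 0.12). By stage (E14, E18, P5 and P56) the first was 0.46, 0.18, -0.001 and 0.07, and the second 0.21, 0.04, 0.08 and 0.59. Each side pools stages, so the SDs and exact p hold differences between stages and do not place a change at birth. The smallest p that this design allows is 0.0022. Both differences were small, and with median centring the first became 0.06 (exact p = 0.76), while the second became -0.54 without the offset (exact p = 0.071) and -1.09 with processed signals (exact p = 0.022). The direction of the first pair therefore depended on the scaling and that of the second on the background correction. Without any 1 of the E14 arrays, E18 replicate 2, either P5 array or P56 replicate 1 or 2, the first had an exact p of 0.057 to 0.067, and without P5 replicate 3 the second had an exact p of 0.014.

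**Figure D4:**
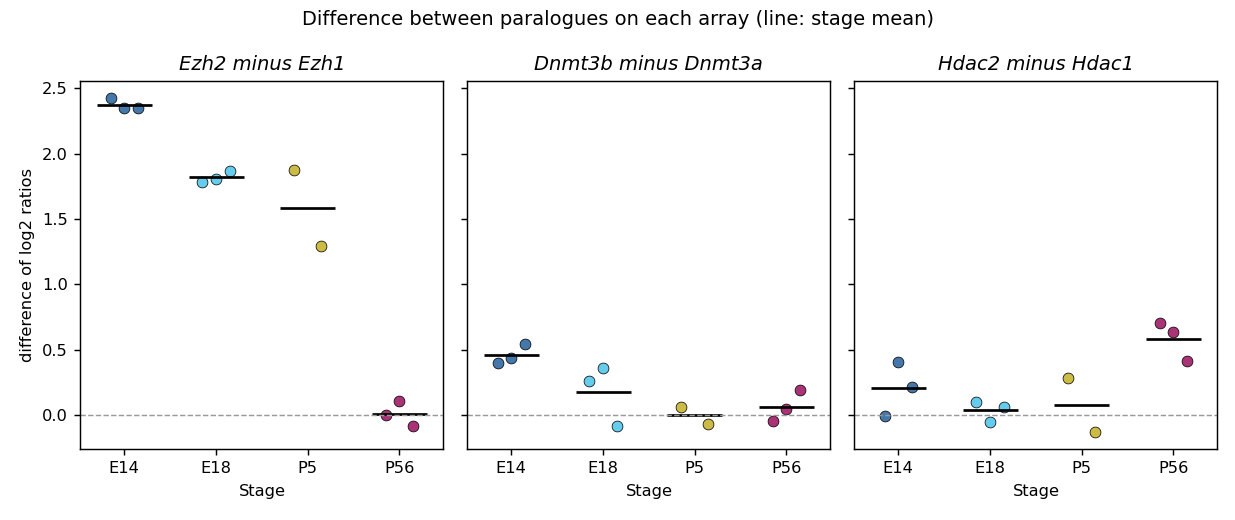
Difference of log2 ratios between paralogues on each array, by stage, with a line at the stage mean. Ezh2 minus Ezh1 lies between 1.30 and 2.43 at E14, E18 and P5 and between -0.08 and 0.11 at P56, while the other pairs stay within 0.71 of 0.

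The partners of these enzymes moved less uniformly. Of 16 tested genes that work with DNA methylation, 10 fell from E14 to P56 and 2 rose, with a median of -0.72. Hells, a chromatin remodeler that helps DNA methylation at repeats, fell by 2.41 ± 0.27 (adjusted p = 6.98e-06, limma), from a mean log2 ratio of 2.20 to -0.21. Ahcy, which clears the by-product of methyl transfer, rose by 2.89 ± 0.15 (adjusted p = 1.09e-08), and had already risen by 1.48 ± 0.15 at E18. Mat2a, which makes the methyl donor S-adenosylmethionine outside adult liver, fell by 1.08 ± 0.13 from E14 to E18 (adjusted p = 2.67e-05).

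Among 9 tested PRC2 accessory subunits and demethylases, 6 fell from E14 to P56 and 1 rose, with a median of -0.38. Rbbp7, a histone-binding subunit, rose by 1.33 ± 0.10 from E14 to E18 (adjusted p = 9.99e-07, limma) and was 1.69 ± 0.10 lower at P56 than at E14 (adjusted p = 3.58e-08), with means of 1.49, 2.82, 2.14 and -0.20 over the 4 stages. Mtf2, which helps to bring PRC2 to its targets, had changed by -0.87 ± 0.09 at E18 and by -1.58 ± 0.09 at P56 (adjusted p = 1.45e-05 and 2.88e-08). Thus Rbbp7 moved against Ezh2 and Eed before birth and with Ezh2 afterwards.

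PRC1, the Polycomb complex that ubiquitinates histone H2A, was split, with 11 of 18 tested genes lower and 6 higher at P56 than at E14 and a median of -0.47. Cbx6, a subunit that binds methylated histone H3, fell by 1.71 ± 0.16 and Rybp by 1.31 ± 0.16 (adjusted p = 3.54e-06 and 1.50e-05, limma). Yaf2, a relative of Rybp, fell by 0.74 ± 0.10 from E14 to E18 (adjusted p = 0.000122) and Phc1 by 0.60 ± 0.13 (adjusted p = 0.00283). Yaf2 was nevertheless among the 6 higher genes, at 0.45 ± 0.10 above its E14 level at P56 (adjusted p = 0.00229). Of 21 tested genes of the deacetylase complexes, 12 fell and 1 rose, with a median of -0.34, led by the NuRD subunits Mta1 (-1.57 ± 0.10) and Mta3 (-1.41 ± 0.11), with adjusted p = 3.97e-08 and 2.37e-07. Before birth the largest called changes of that list were those of Brms1 (-0.65 ± 0.09) and Gatad2a (-0.47 ± 0.10), with adjusted p = 0.000131 and 0.00273. Over all genes tested the median in the comparison of P56 with E14 was 0.04, and these counts stand beside 34.8% called lower and 36.1% called higher.

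Cell cycle genes had larger changes than the 10 genes in the comparisons with P56. All 25 were lower at P56 than at P5 and than at E14, with medians of -2.81 and -3.82, led by Mki67 (-5.30 ± 0.19, adjusted p = 5.57e-10, limma) and Mcm4 (-4.67 ± 0.16, adjusted p = 4.86e-10). From E14 to E18, 7 were lower and 1 was higher, beside 22.8% and 24.6% of all genes, and their median of -0.33 was that of the 10 genes. From E18 to P5, 1 of the 25 was lower, with a median of -0.29 beside -0.27 for the 10 genes. From E14 to E18 the list had its largest changes in Ccnb1 (-1.15 ± 0.22, adjusted p = 0.00105) and Ccne1 (-0.89 ± 0.13, adjusted p = 0.000214). The mean over the 25 genes ran from 2.82 to 2.99 on the E14 arrays, 2.54 to 2.61 at E18, 1.90 to 2.58 at P5 and -0.66 to -0.43 at P56. The 15 erythroid markers were all lower at P56 too, with a median of -3.37 from E14, and 9 of them, Gata1, Slc4a1 and Rhag included, were not well above background on all P56 arrays. Of the other markers, the hepatoblast list had 5 of 7 genes lower at P56 than at E14, the other haematopoietic list 8 of 16 lower and 3 higher, and the stellate and fibroblast list 8 of 10 lower and 2 higher. The macrophage list had 5 of 10 higher, the endothelial list 6 of 9 higher and 1 lower, the biliary list 2 of 5 higher and 1 lower, and the mature hepatocyte list 15 of 15 higher. The marker lists moved within single steps too. From E14 to E18, where 5 of the 10 genes were lower, 14 of 15 mature hepatocyte and 10 of 10 macrophage markers were higher. So were 7 of 9 endothelial, 4 of 7 hepatoblast and 4 of 5 biliary markers. The other haematopoietic list had 11 of 16 higher and 2 lower. The erythroid list had 3 higher and 2 lower, and the stellate and fibroblast list 3 and 3. From P5 to P56, 15 of 15 erythroid, 14 of 16 other haematopoietic and 6 of 7 hepatoblast markers were lower. So were 6 of 10 macrophage and 2 of 5 biliary markers. The endothelial list had 7 of 9 lower and 1 higher, and the stellate and fibroblast list 6 of 10 and 1. The mature hepatocyte list had 7 of 15 higher and 3 lower. Of all genes, 24.7% were lower and 20.9% higher in that step. The part of cell division, of blood cells and of the other cell types in the changes of the 10 genes was not tested.

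**Figure D5:**
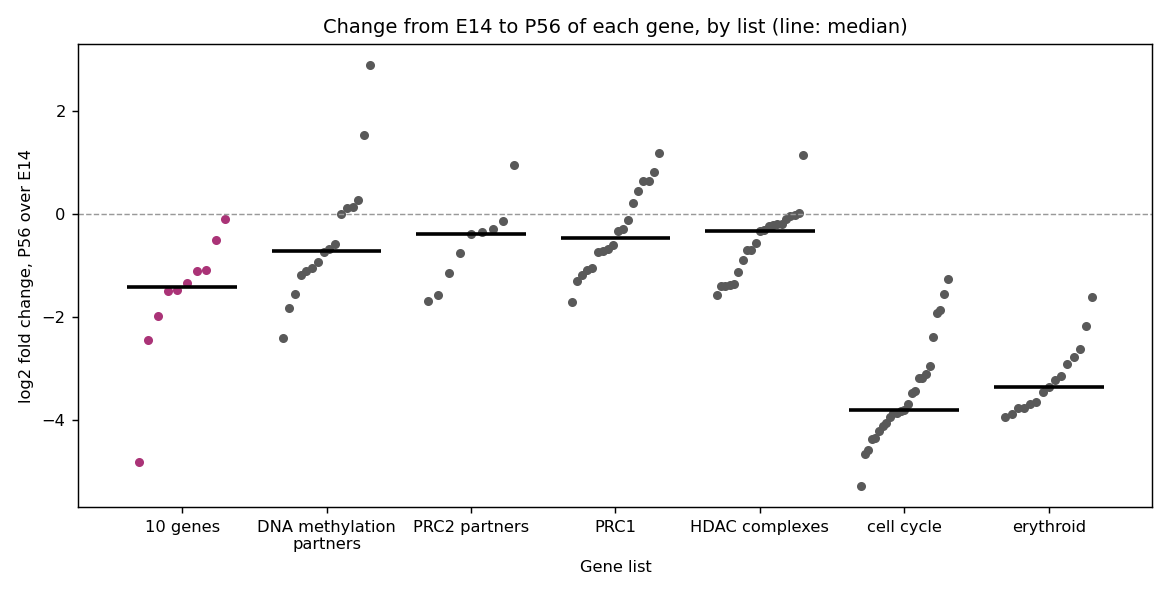
Log2 fold change from E14 to P56 for each tested gene of 7 lists, sorted within the list, with the median as a line. The 10 genes have a median of -1.41, between the partner lists at -0.72 to -0.34 and the cell cycle and erythroid lists at -3.82 and -3.37.

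Over the 11 arrays, each gene was set against all other genes tested by Pearson's r of the log2 ratios, as a description of likeness in which the P56 arrays stand far from the rest. Uhrf1 was most like Mthfd1l (r = 0.999), Rrm1 (0.998) and Tacc3 (0.997). Ezh2 was most like Kcnn4 (r = 0.998), Hnrpd (0.997) and Tgif2 (0.997). Dnmt1 was closest to Purb (r = 0.997), Itga6 (0.997) and Myb (0.996), and Suz12 to Mns1 (r = 0.998), Gpsm2 (0.996) and Smox (0.995). Dnmt3b was most like 2610510J17Rik (r = 0.995), Utp6 (0.993) and Narg1 (0.992), and Dnmt3a most like Aprin (r = 0.992), Recql (0.992) and Cenph (0.991). For Hdac1 these were 4432416J03Rik, an unnamed transcript and Exoc6, at r = 0.993 each, and for Hdac2 they were 6530401D17Rik (r = 0.987), Mdm1 (0.985) and A230106D06Rik (0.985). Eed (D19Bwg1357e, r = 0.974, an unnamed transcript, 0.958, and Tmem14c, 0.958) and Ezh1 (P140, r = 0.927, 2610524H06Rik, 0.918, and Rabgef1, 0.917) had less close neighbours.

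Since most of these genes fell together, the sequence before their starts was searched for letters known from cell cycle promoters. RefSeq promoters (GRCm38.p6) were at hand for 9 of the 10 genes, at 14 starts, some of which overlap, and the 250 bases before each start were read. The letters of an E2F site, taken as TTTCCCGC, TTTCGCGC, TTTGCCGC or TTTGGCGC on either strand, stood before 1 start each of Dnmt1, Uhrf1 and Suz12, where 1.86% of all 32851 promoters of that length hold them. CCAAT, read on both strands, stood before 6 of the 14 starts, in Dnmt1, Uhrf1, Ezh2 and Suz12, where 33.8% of all promoters hold it. TTTGAA or TTTAAA, on both strands, stood before 5 of 14, where 25.2% of all do. Matches of different motifs overlapped at 0 of these places. These matches are descriptions of the sequence, and binding was not measured.

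The 250 bases are shown for Uhrf1, Suz12 and Ezh2, which hold E2F or CCAAT letters, set here in capitals. That of Uhrf1, at its second start, is chr17:56304063-56304312 on the plus strand, that of Suz12 chr11:79992856-79993105 on the plus strand, and that of Ezh2 chr6:47595031-47595280 on the minus strand. They hold 30, 37 and 23 CG pairs, where the median over all promoters is 6. The shares over all promoters given above were not taken at like counts of CG pairs. The genes shown were called lower at P56 than at E14, as were Dnmt3a, Dnmt3b, Eed and Hdac2. The latter hold neither E2F nor CCAAT letters before any start read. The first Uhrf1 start has CCAAT but no E2F letters.
Uhrf1: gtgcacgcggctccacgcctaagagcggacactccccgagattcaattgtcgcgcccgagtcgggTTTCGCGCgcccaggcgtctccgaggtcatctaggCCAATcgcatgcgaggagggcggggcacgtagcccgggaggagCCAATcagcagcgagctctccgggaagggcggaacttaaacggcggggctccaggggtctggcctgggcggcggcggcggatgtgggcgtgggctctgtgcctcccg
Suz12: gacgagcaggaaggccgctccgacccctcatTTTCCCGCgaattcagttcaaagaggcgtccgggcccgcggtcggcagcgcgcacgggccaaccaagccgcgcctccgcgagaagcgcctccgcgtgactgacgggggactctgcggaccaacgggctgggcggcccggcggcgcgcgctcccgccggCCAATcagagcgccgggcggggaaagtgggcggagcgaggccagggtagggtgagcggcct
Ezh2: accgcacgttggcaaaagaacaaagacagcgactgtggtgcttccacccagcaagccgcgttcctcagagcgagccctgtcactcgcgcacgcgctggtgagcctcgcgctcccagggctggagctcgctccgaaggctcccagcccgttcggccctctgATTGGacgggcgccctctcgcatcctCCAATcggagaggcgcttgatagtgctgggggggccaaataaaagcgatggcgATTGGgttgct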

How the data were processed

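RNA of mouse liver was measured on 11 two-colour Agilent 4x44k arrays. The authors deposited raw spot intensity values for Cy5 and Cy3, written by Feature Extraction 9.5.1.1, and a table of normalized log2 ratios per gene, which was used as an alternative only. The local background (median) was taken from mean signals with normexp at offset 50, and loess was applied within each array (limma 3.58.1, R 4.3.3). Control and outlier spots were dropped. A probe was kept when every array of 1 or more stages had it well above background in Cy5, and at most 1 value per stage was missing, and each gene was represented by its brightest probe. Of the 16704 genes, 263 had a missing value, none of them among the 10 genes. Stages were fitted together with lmFit and eBayes in all 11 arrays, and calls were made at 0.05 after Benjamini-Hochberg adjustment. A 60-base probe is placed on mm7 as in the files, and promoters come from RefSeq (GRCm38.p6). The number of arrays limits the precision.

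On simulated data (16704 genes in each run), the fit recovered 34%, 27%, 32% and 28% of 100 genes given a log2 change of 0.5 for E18 against E14, P5 against E18, P56 against P5 and P56 against E14, and 85%, 88%, 84% and 87% of 100 given a change of 1. In each run all other genes were left unchanged, whereas far more genes were called in the data. The adjustment is stricter when few genes change, so these shares are not the recovery of the reported fit. The 10 genes and the gene lists were chosen with earlier results of these data known. All 10 genes are named, and from each partner and cell cycle list the 2 genes with the largest called change from E14 to P56 and the 2 from E14 to E18 are named, with the 3 genes most like each of the 10. Lists held 17, 10, 20, 21 and 25 genes (DNA methylation partners, PRC2 partners, PRC1, deacetylase complexes and cell cycle), and 8 lists held markers of liver cell types. Array names are those of the design, and older names were matched through RefSeq synonyms. Alternatives were other background corrections, scalings, filters and probe choices, the Cy5 channel alone, the authors' table, blocks for scan or for replicate number, each array left out, and the methods' t-test in 2 forms. The alternative without an offset was added after seeing the data. Each column of the authors' table correlated with its array with r of 0.815 to 0.931 across genes. Plots used matplotlib 3.10.9 (Python 3.11.15).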

Additional observations from a re-analysis of the deposited data

How the results depend on the processing

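The 9 members called from E14 to P56 became 6 to 12 over the alternatives. The 12 came from every probe as a feature and counts probes, not genes. The authors' table gave 7, without Eed and Hdac2. The 6 came from a filter on all arrays, which tested only 6 of the 10 members, all of them called. It did not test Dnmt3b, Uhrf1, Ezh1 or Hdac2 in any comparison, so its lower counts below include genes not tested. Over all 4 comparisons and other alternatives, the values of single members kept their call, or stayed without one, in 548 cases, lost the call in 42, gained it in 13 and reversed in 1, and with 1 array left out these were 404, 29, 7 and 0. The 548 include between-array normalization, which left the log2 ratios unchanged. They also include the mean over probes, which cannot alter the value of the 6 genes with 1 probe. The 548 therefore overstate how far the calls were tested. The reversed one was Eed from P5 to P56, -0.79 under median centring. That scaling moved the median of all genes by -0.47 from P5 to P56 and by -0.33 from E14 to P56, and the share of calls that were higher fell from 45.7% to 6.8% and from 51.0% to 22.9%. The share of higher calls from E14 to E18 went from 51.9% to 62.7% without the offset and to 41.8% in Cy5 alone, and from E18 to P5 from 53.4% to 67.8% in the authors' table. Without the offset the median of all genes from E14 to P56 was 0.15 in place of 0.04.

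From E14 to E18, the 5 members became 1 without the offset, 3 with the filter on all arrays, 2 in the authors' table and 2 with the scan as a fixed block, with 2 to 5 when single arrays were left out. From E18 to P5, the 2 members became 1 without background correction, 1 with median centring, 1 in Cy5 alone, 1 with the filter on all arrays and 1 by the methods' t-test at an unadjusted threshold of 0.05. They became 0 without the offset, without a filter on dim probes, in the authors' table, with the scan as a random block and by the methods' t-test after Benjamini-Hochberg, with 0 to 6 when single arrays were left out. The 2292 genes called in that step became 1474 with median centring, 829 in the authors' table, 3466 by the methods' t-test and 61 by it after Benjamini-Hochberg, with 928 to 3763 over left-out arrays. From P5 to P56, the 7615 genes became 4672 with the scan as a fixed block and 298 by the t-test after Benjamini-Hochberg, where the 7 members became 0, and 4741 to 8210 genes and 6 to 8 members were called with 1 array left out, 4741 without P5 replicate 2.

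Ezh2 minus Ezh1 was -1.04 (exact p = 0.11) with processed signals and -1.02 (exact p = 0.15) in the authors' table, and -1.76 to -1.27 with 1 array left out. Dnmt3b minus Dnmt3a was 0.063 with median centring and -0.36 to -0.24 with 1 array left out, with exact p = 0.0079 to 0.067. Hdac2 minus Hdac1 was -0.54 (exact p = 0.071) without the offset, -1.09 (exact p = 0.022) with processed signals and 0.36 (exact p = 0.050) in Cy5 alone, and 0.18 to 0.39 with 1 array left out, with exact p = 0.014 without P5 replicate 3. The cause of these shifts was not tested.

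The replicate numbers did not pair the arrays: the deviations of 15 same-numbered pairs correlated with r of -0.31 to 0.19, and 1 was over 0.1. With the replicate block, 5, 0, 7 and 9 members and 7536, 1732, 6853 and 11518 genes were called in the 4 comparisons. Signal over background limits Ezh1, the adult values of Uhrf1, Hdac2 and Dnmt3b, and the second probe of Dnmt3a.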

Other observations

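Among genes around the 10 enzymes, some of the erasers and readers of DNA methylation also changed, by values that stand outside the named genes and were chosen after they were seen. Tet1, listed on the array as Cxxc6, which oxidises methylated cytosine, rose by 1.54 ± 0.14 on the log2 scale from E14 to P56 (adjusted p = 1.18e-06, limma), while Tdg, which removes the oxidised base, fell by 1.18 ± 0.09 (adjusted p = 2.37e-07). The reader Mbd2 fell by 0.93 ± 0.12, and Mbd3 fell by 1.10 ± 0.10 (adjusted p = 2.24e-05 and 1.36e-06). Others were not called: the eraser Tet2, listed as E130014J05Rik, had -0.004 (adjusted p = 0.977), and the readers Mbd1 and Zbtb33 had 0.12 (adjusted p = 0.396) and 0.27 (adjusted p = 0.127). Usp7, a deubiquitinase that binds Uhrf1 and Dnmt1, fell by 1.84 ± 0.15 (adjusted p = 4.33e-07), with almost all of this between P5 and P56 (-1.75 ± 0.17).

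Within PRC1, chromobox subunits went opposite ways from E14 to P56. Cbx7 and Cbx8 rose by 1.18 ± 0.19 and 0.82 ± 0.09 (adjusted p = 0.000147 and 8.66e-06, limma), and Cbx2 fell by 0.61 ± 0.13 (adjusted p = 0.00100). Bmi1 rose by 0.65 ± 0.11 and Rnf2, one of the alternative catalytic subunits, fell by 1.08 ± 0.14 (adjusted p = 0.000214 and 2.31e-05), while the other, Ring1, was 0.21 ± 0.09 higher (adjusted p = 0.0431). These too were chosen after their values were seen.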
